A study of Mus musculus with 16 samples.

Results

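E2F transcription factors and retinoblastoma proteins are the switch through which a cell enters DNA replication, and their transcripts were followed in cells labelled as juxtaglomerular (JG) and given miR-106b. The members are 10 genes named by family: the activators E2f1, E2f2 and E2f3, the repressors E2f4 and E2f5, the atypical repressors E2f7 and E2f8, and the pocket proteins Rb1 (RB), Rbl1 (p107) and Rbl2 (p130). All 10 are among the 46078 genes counted, and all 10 passed the filter that left 14897 genes to test. The labels name engineered mouse JG cells, a kidney cell that makes renin. By the study's account they were grown in culture dishes and carried YFP under the renin promoter. The deposited counts go against this name, since the renin gene had no count in any library and cardiac transcripts were abundant, as given below. Cultures received either miR-106b or a control by transfection and were harvested 48 h later. Polyadenylated (polyA) RNA and the RNA that came down with an antibody to Ago2 (Ago2-IP) were each sequenced in 4 libraries for each transfection, 16 in all. The 4 libraries of a group are replicates by the labels and biological replicates by the study's methods. Neither says whether each came from a culture of its own, and p-values measure the spread between these libraries.

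Activator E2Fs bind DNA with a DP partner and switch on genes of DNA replication and of the nucleotide supply. Pocket proteins hold E2Fs in check until cyclin-dependent kinases phosphorylate them, RB mostly the activators and p107 and p130 mostly E2F4 and E2F5. E2F7 and E2F8 bind without a DP partner or a pocket protein, repress the same promoters late in the S phase, and are themselves E2F target genes. miR-106b belongs to the miR-17 family, whose known targets include mRNAs of E2F1 and of pocket proteins, and its hairpin lies within the Mcm7 gene, itself an E2F target. Ago2 is the protein that holds a miRNA and its bound mRNAs, and the level of an mRNA in Ago2-IP relative to polyA RNA is read as its association with this complex.

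Libraries held 2579086 to 9459585 reads counted on genes, with medians of 6450099 in polyA control and 3645937.5 in polyA miR-106b libraries. A count of 0 allows 3 counts, or 0.317 to 1.16 CPM (counts scaled to library size) from the deepest to the shallowest library, for counting error only. The renin gene Ren1 had 0 counts in all 16 libraries, and Akr1b7, another JG cell gene, 6 counts in total, while 7 markers of kidney tubules and podocytes summed to at most 2.04 CPM in a library. Transcripts of cardiac muscle were abundant, at a summed 22083 to 30965 CPM over 17 marker genes in polyA control, 42436 to 72648 CPM in polyA miR-106b, 98046 to 105143 CPM in Ago2-IP control and 94905 to 104217 CPM in Ago2-IP miR-106b libraries. In polyA RNA 16 of 16 cardiac markers tested rose with miR-106b, with a median log2 fold change of 1.23, as did 6 of 6 markers of endothelium, 4 of 4 of blood and 6 of 6 of fibroblasts. Of 6 markers of smooth muscle and mural cells 3 rose and 1 fell, with a median log2 fold change of 0.96. Their sums, carried mostly by Acta2 and Tagln, overlapped, at 1323 to 1535 CPM in polyA control and 1042 to 1597 CPM in polyA miR-106b. The median of these 6 markers, each relative to its mean in Ago2-IP control, did not overlap, at 0.345 to 0.554 and 0.637 to 1.11. The cardiac sums of polyA control and polyA miR-106b libraries did not overlap, and the part of these transcripts in the results on polyA RNA was not tested. In bulk RNA, fewer cells of a type and less RNA per cell cannot be told apart.

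The miR-106b-5p sequence and those of miRNAs with the same seed are shown first, since the seed, bases 2 to 8 in capitals, is what a site in an mRNA pairs with. RefSeq (GRCm38.p6) lists 7 mouse miRNAs with this seed, of which 4 are given here. miR-106b-5p and miR-93-5p come from the same stretch of chromosome 5, at chr5:138165787-138165807 and chr5:138165574-138165596 on the minus strand, inside Mcm7 (chr5:138164583-138172422, minus strand in GENCODE M21), and miR-17-5p and miR-20a-5p from chromosome 14.
mmu-miR-106b-5p: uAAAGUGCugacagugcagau
mmu-miR-93-5p: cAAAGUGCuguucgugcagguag
mmu-miR-17-5p: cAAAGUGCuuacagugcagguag
mmu-miR-20a-5p: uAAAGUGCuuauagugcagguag

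The complement of this seed, GCACTTT (a 7mer-m8 site, or an 8mer site when an A follows), was searched in the longest 3′UTR of each gene in GENCODE M21. Of the 10 members 7 held at least 1 such site, against 1954 of 13222 tested genes with a 3′UTR, or 14.8%. This count is a description of sequence, since longer 3′UTRs hold more sites by length alone and the members' 3′UTRs run from 592 bases in E2f5 to 3328 bases in E2f3. E2f1 held 2 sites, 470 and 985 bases after the stop codon of a 3′UTR of 1281 bases. Rbl2 held 2 as well, an 8mer and a 7mer-m8 site that begin 705 and 766 bases after the stop codon. E2f2, E2f3, E2f5, Rb1 and Rbl1 held 1 each, the sites of E2f3 and E2f5 being 8mers, and the site of Rbl1 began 23 bases after the stop codon. In the 3′UTRs of E2f4, E2f7 and E2f8 these letters were not found. The 9 sites are shown with the bases around them, the match to the seed (with the A of an 8mer) in capitals, read along the mRNA.
E2f1, chr2:154560212-154560218, minus strand: gggctctaactGCACTTTtggtgtccttg
E2f1, chr2:154559697-154559703, minus strand: ccctccagtctGCACTTTgatttgtttcc
E2f2, chr4:136194379-136194385, plus strand: tcagtggggcaGCACTTTttgcttgttgt
E2f3, chr13:29908077-29908084, minus strand: agaagacaccgGCACTTTAaactctgtgtg
E2f5, chr3:14606159-14606166, plus strand: cttctgttttaGCACTTTAagcctatcagt
Rb1, chr14:73196361-73196367, minus strand: acaacccaagtGCACTTTttaatgtttct
Rbl1, chr2:157147477-157147483, minus strand: gcctgatcaaaGCACTTTtggattgttct
Rbl2, chr8:91123151-91123158, plus strand: tgtaattggtgGCACTTTAtggctgtaaga
Rbl2, chr8:91123212-91123218, plus strand: tatttatgatgGCACTTTctatggtgtga

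**Figure D1:**
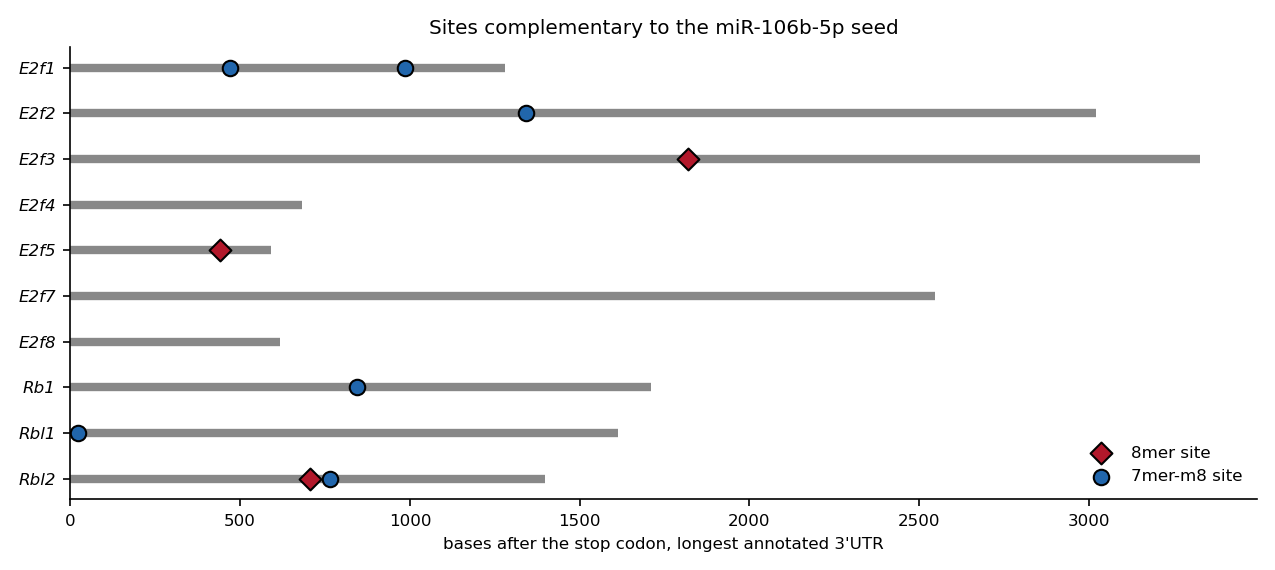
Position of each site complementary to the miR-106b-5p seed along the longest annotated 3′UTR of each member, in bases after the stop codon (grey bars are the 3′UTRs to scale, diamonds 8mer and circles 7mer-m8 sites). The bars of E2f4, E2f7 and E2f8 carry no site, and those of E2f1 and Rbl2 carry 2 each.

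Levels were first compared among the members within each group, as normalized CPM per kb of exon, because only a value per length can be set against that of another gene. E2f4, the main E2F of resting cells, was highest in all 4 groups, at 53.8 ± 4.41 CPM per kb (SD, n = 4) in polyA control and 38.8 ± 1.45 in polyA miR-106b. E2f1, the best-known activator, came next in polyA control with 18.5 ± 3.46 CPM per kb, its range of 14.3 to 22.4 apart from that of E2f7 (5.13 to 7.61), the next in the order. Rb1 was last in polyA RNA, at 1.05 ± 0.342 and 0.876 ± 0.366 CPM per kb. The ranges of neighbouring members from E2f7 down to Rbl1 overlapped in polyA control, so that only E2f4, E2f1 and Rb1 stood apart from their neighbours with this length. In Ago2-IP libraries the order was another one below E2f4 (27.0 ± 2.51 CPM per kb in control). Rbl2 stood second there, at 5.30 ± 1.195 CPM per kb in control and 5.30 ± 0.164 with miR-106b, and E2f1 followed, at 3.60 ± 0.616 and 3.57 ± 0.421. E2f7, which followed E2f1 in polyA control, was at 0.832 ± 0.194 CPM per kb in Ago2-IP control, where its range overlapped those of its neighbours E2f2 and Rbl1.

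**Figure D2:**
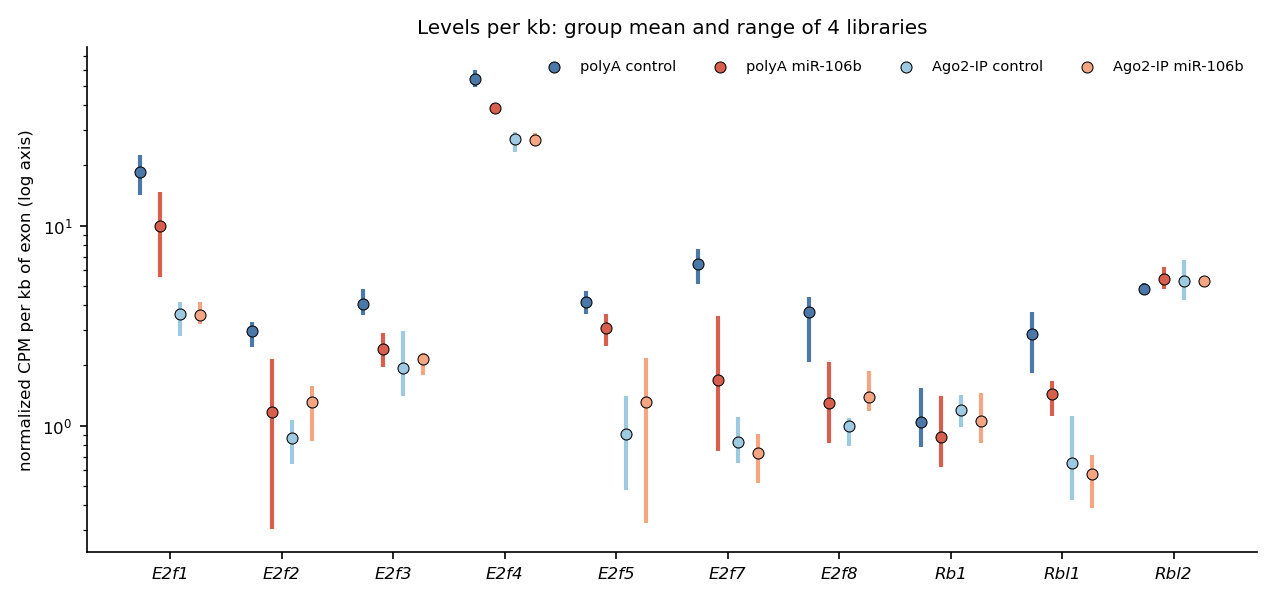
Normalized CPM per kb of exon (log axis) of each member in the 4 groups, as the group mean (points) and the range of 4 libraries (bars). E2f4 lies above every other member in each group, at 53.8 CPM per kb in polyA control, and Rb1 lies at 1.05 in the same group.

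The first question was how the activators, the members that drive S phase genes, responded in polyA RNA. E2f1 (chr2:154559407-154569892, minus strand) was at 62.2, 70.8, 54.9 and 45.0 normalized CPM in control replicates 1 to 4 and at 46.5, 28.6, 33.3 and 17.4 in miR-106b replicates 1 to 4. One miR-106b library lay above the lowest control library, so that the groups overlapped. The fall of E2f1 was 0.87 log2 units, with a log2 fold change of -0.87 ± 0.231 (SE) that passed edgeR's quasi-likelihood test (adjusted p = 0.0102). Without control replicate 1 or 2 this call was lost, at -0.75 (adjusted p = 0.0528) and -0.67 (adjusted p = 0.0715).

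E2f2 (chr4:136172394-136196057, plus strand), also an activator, was at 15.9, 16.1, 14.2 and 12.0 normalized CPM in control and at 2.23, 8.81, 10.5 and 1.48 in miR-106b libraries. All 4 miR-106b libraries lay below all control libraries, but they split into a pair near the lowest control value and a pair at 4 and 10 counts. E2f2 fell by 1.32 ± 0.406 on the log2 scale (adjusted p = 0.0213), and this call was lost without control replicate 1, 2 or 3 (adjusted p = 0.0832, 0.0956 and 0.0783). E2f3 (chr13:29906575-29986063, minus strand), which acts beside E2f1 in most dividing cells, was at 19.4, 26.2, 22.4 and 20.4 normalized CPM in control and at 10.7, 15.8, 14.6 and 11.5 in miR-106b libraries, with no overlap. It fell by 0.75 ± 0.171 on the log2 scale (adjusted p = 0.00406), and without any 1 library the adjusted p stayed at or under 0.0421.

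Of the classical repressors, which act with p107 and p130, E2f4 changed and E2f5 did not pass the test. E2f4 (chr8:105297663-105305370, plus strand) was at 129, 147, 130 and 121 normalized CPM in control and at 96.1, 96.9, 97.8 and 90.0 in miR-106b libraries. Its groups did not overlap, and the miR-106b libraries were close to each other. It fell by 0.47 ± 0.101 on the log2 scale (adjusted p = 0.00297), the smallest fall among the members called, and without control replicate 2 the value was -0.33 (adjusted p = 0.0552). E2f5 (chr3:14578641-14606309, plus strand) was at 8.36, 7.96, 6.73 and 6.46 normalized CPM in control and at 6.48, 5.61, 5.51 and 4.44 in miR-106b libraries. The highest miR-106b library lay just above the lowest control library, and the log2 fold change of -0.41 ± 0.212 had an adjusted p of 0.144.

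The atypical repressors E2f7 and E2f8 fell, with the most negative log2 fold changes among the members. E2f7 (chr10:110745439-110787384, plus strand) was at 57.8, 68.6, 58.7 and 46.3 normalized CPM in control and at 6.70, 15.2, 31.7 and 7.40 in miR-106b libraries. The groups did not overlap, although the miR-106b libraries differed among themselves by more than the control libraries did (SD of 11.6 against 9.13 CPM, at a mean of 15.2 against 57.8). E2f7 fell by 1.92 ± 0.409 on the log2 scale (adjusted p = 0.00563), with log2 fold changes from -2.56 to -1.55 when 1 library was left out. E2f8 (chr7:48866429-48881596, minus strand) was at 21.8, 23.6, 23.9 and 11.3 normalized CPM in control and at 4.47, 7.21, 11.3 and 5.18 in miR-106b libraries. Control replicate 4 and miR-106b replicate 3 almost met, at 11.35 and 11.29 CPM. E2f8 fell by 1.52 ± 0.300 on the log2 scale (adjusted p = 0.00182). For both genes the call was kept without any 1 library, with adjusted p-values up to 0.0291 and 0.0112. In the annotation 11.2% of the exon bases of E2f8 are shared with Gm2788 on the other strand, and the libraries do not mark strand.

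Among the pocket proteins Rbl1 fell, and Rb1 and Rbl2 did not pass the test. Rbl1 (chr2:157145893-157204534, minus strand), itself a known E2F target gene, was at 15.6, 19.9, 22.1 and 10.997 normalized CPM in control and at 8.72, 6.67, 9.09 and 9.996 in miR-106b libraries, with no overlap. It fell by 1.01 ± 0.233 on the log2 scale (adjusted p = 0.00444), and by no less than 0.78 without any 1 library. Rb1 (chr14:73183673-73325822, minus strand), the founding tumour suppressor of the family, was at 9.31, 5.76, 5.39 and 4.71 normalized CPM in control and at 4.69, 3.74, 4.13 and 8.51 in miR-106b libraries. One library in each group stood above the others, and the log2 fold change was -0.30 ± 0.311 (adjusted p = 0.475), or 0.03 without control replicate 1. Rbl2 (chr8:91070057-91123844, plus strand), the pocket protein most abundant in resting cells, was at 38.2, 39.3, 33.8 and 35.1 normalized CPM in control and at 47.2, 40.0, 36.4 and 39.6 in miR-106b libraries. The log2 fold change of 0.16 ± 0.120 (adjusted p = 0.316) is the only positive value among the 10 members. Reads of Rb1 and Rbl2 could partly belong to neighbours on the other strand, since 14.9% of the exon bases of Rb1 are shared with Lpar6 and Rcbtb2 and 20.97% of those of Rbl2 with Aktip and Gm45464.

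**Figure D3:**
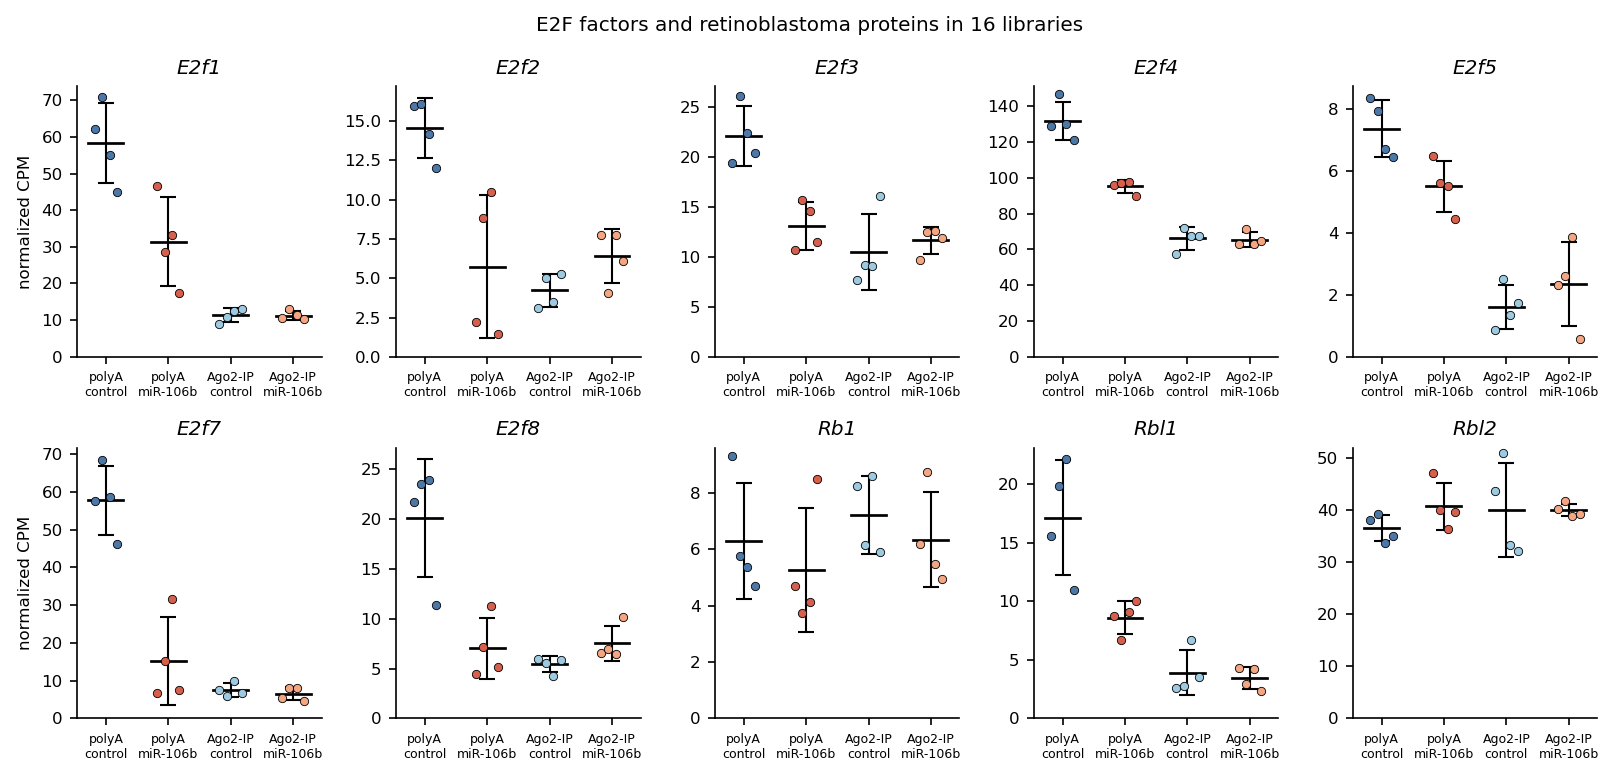
Normalized CPM of each member in each of the 16 libraries (points, replicates 1 to 4 from left to right in each group) with the mean and SD of 4 libraries (black bars, linear axes from 0, a scale for each gene). In polyA RNA E2f7 goes from a mean of 57.8 to 15.2 CPM and Rbl2 from 36.6 to 40.8, while the Ago2-IP groups overlap for all members but E2f8.

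Counted together, 7 of 10 members fell in polyA RNA with miR-106b and 0 rose, where 21.5% of the 14897 genes tested fell and 19.0% rose. The groups stood apart, all miR-106b below all control libraries, for 6 members, against 21.6% of all genes, and the smallest p of an exact two-sided permutation test of 4 against 4 libraries is 0.0286. The median log2 fold change was -0.81 over the members and -0.05 over all genes. Without control replicate 2 the members that fell were 4 of 10, and leaving out any other 1 library gave 5 to 7. Leaving out miR-106b replicates 2 and 4, the libraries with the most cardiac transcripts, a choice made after the values were seen, kept E2f3, E2f4 and Rbl1 among the calls, 3 of 10, where 1463 of 14897 genes were lower and 1641 higher. The log2 fold changes were then -0.51 for E2f1 (adjusted p = 0.0786), -1.22 for E2f2 (0.0895), -1.59 for E2f7 (0.109) and -1.36 for E2f8 (0.0643), with 2 miR-106b libraries left. The background moved with single libraries as well, to 1826, 1636 and 1705 genes lower without control replicate 1, 2 or 3. Calls over all genes were 3198 lower and 2836 higher with all libraries, or 2410 lower and 3828 higher when the 16 libraries were scaled in 1 fit, which moved the median of all genes by 0.13.

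The next question was whether the same transcripts changed in RNA bound to Ago2. None of the 10 members passed the test in Ago2-IP RNA, 0 of them had an unadjusted p under 0.05, and 0 were called by any other tool or setting tried. This stands beside 0 calls among all 14897 genes (0%) in edgeR's quasi-likelihood test, with 827 at an unadjusted p under 0.05, 2 calls (higher) in DESeq2, and 15 higher and 3 lower in edgeR's likelihood ratio test. The quasi-likelihood test itself called 36 higher and 4 lower genes without miR-106b replicate 4 of the Ago2-IP libraries, 0 and 4 when miR-106b replicate 1 was left out instead, 5 and 5 when it was control replicate 4, 12 and 8 with no filter, 2 and 0 with at least 10 counts in every library, and 0 and 1 with the replicate block. E2f1 was at 8.82, 10.9, 12.6 and 13.1 normalized CPM in Ago2-IP control and at 10.5, 13.1, 11.3 and 10.2 in Ago2-IP miR-106b libraries, a log2 fold change of -0.02 ± 0.203. E2f4 was at 57.5, 72.0, 67.7 and 67.3 CPM in control and at 62.8, 71.5, 63.2 and 64.6 with miR-106b, its log2 fold change being -0.01 ± 0.0882. These values overlapped throughout, as did those of the other members except E2f8.

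E2f8 was at 5.98, 5.58, 4.30 and 5.90 CPM in Ago2-IP control and at 6.59, 7.004, 6.44 and 10.2 with miR-106b, all 4 above all control libraries, as for 1.56% of all genes. Its log2 fold change of 0.48 ± 0.277 had an adjusted p of 0.899. E2f2, with a log2 fold change of 0.58 ± 0.316 (adjusted p = 0.898), was at 3.13, 5.03, 3.49 and 5.24 CPM in control and at 7.75, 4.09, 7.73 and 6.11 with miR-106b. These are low counts, 11 to 24 reads of E2f2 in each Ago2-IP library. E2f5 was counted 2 to 12 times per Ago2-IP library, at or under the limit of 3 counts in some, and its log2 fold change of 0.51 ± 0.544 did not pass the test. E2f3, E2f7 and Rbl1 were at log2 fold changes of 0.13 ± 0.214, -0.18 ± 0.271 and -0.20 ± 0.390. Rb1 (5.90 to 8.60 CPM in control and 4.95 to 8.75 with miR-106b) and Rbl2 (32.1 to 51.1 and 39.0 to 41.7) were at log2 fold changes of -0.18 ± 0.274 and 0.01 ± 0.119.

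The Ago2:polyA ratio, the study's measure of association with the silencing complex, was tested as the difference between the changes in both RNA kinds. It rose for E2f2, by 1.75 ± 0.551 on the log2 scale (adjusted p = 0.0216), and for E2f8, by 1.86 ± 0.404 (adjusted p = 0.00118). These are 2 of 10 members, where 7.62% of all genes rose in this ratio, and none fell, where 19.7% of all genes did. Over all genes these shares are 1135 higher and 2937 lower, against 1991 and 2311 by library size only and 1937 and 2364 with TMM within each RNA kind, where 4 and 5 members rose. For both genes polyA RNA fell while no change passed the test in Ago2-IP RNA, as the values above show. E2f8 kept the call without any 1 library (adjusted p up to 0.00553), and E2f2 lost it without Ago2-IP miR-106b replicate 3 (1.64, adjusted p = 0.0507). E2f7 was at 1.59 ± 0.592 (adjusted p = 0.0591), E2f3 at 0.74 ± 0.291 (0.0592), E2f4 at 0.31 ± 0.132 (0.083) and E2f1 at 0.70 ± 0.322 (0.111). With other settings up to 5 of the 10 members were called. Over all genes 1732 of 31502 rose with no filter. Of 14897 genes, 1818 rose in the likelihood ratio test, 1408 in DESeq2 and 1074 with the replicate block. E2f3, E2f4 and E2f7 were called in 8, 6 and 5 of 10 other settings, and in 3, 1 and 1 of 16 fits without 1 library. E2f1 was called with no filter (0.85, adjusted p = 0.0051), with the replicate block (0.77, adjusted p = 0.0362), in the likelihood ratio test (0.74, adjusted p = 0.0414) and without polyA miR-106b replicate 1 (0.96, adjusted p = 0.00835). E2f5, at 0.77 ± 0.524, Rbl1, at 0.66 ± 0.437, and the remaining pocket proteins, Rb1 at -0.03 ± 0.408 and Rbl2 at -0.30 ± 0.191, had adjusted p-values of 0.259 or above. E2f8, with the largest value, has no site in its 3′UTR.

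**Figure D4:**
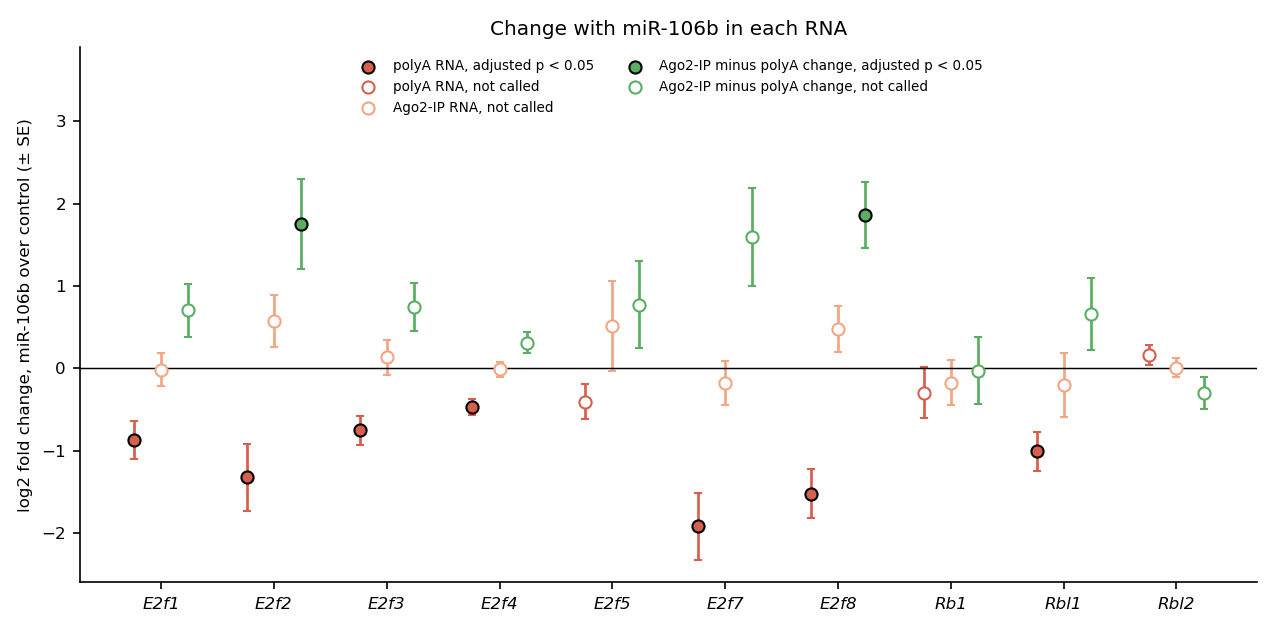
Log2 fold change of each member with miR-106b (± SE) in polyA RNA, in Ago2-IP RNA and as the difference between both, filled where the adjusted p is under 0.05. The polyA values run from -1.92 for E2f7 to 0.16 for Rbl2, the Ago2-IP values lie between -0.20 and 0.58, and only E2f2 and E2f8 are filled for the difference.

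Set beside the sites, the polyA result was the following. Of the 7 members with a site 4 fell (E2f1, E2f2, E2f3 and Rbl1), with log2 fold changes from -1.32 to 0.16 over the 7. Of the 3 without a site all 3 fell (E2f4, E2f7 and E2f8), with log2 fold changes from -1.92 to -0.47. Among genes whose 3′UTR could be searched, 25.3% of 1954 with a site and 22.9% of 11268 without one fell, beside 21.5% of all 14897. Rbl2, with an 8mer and a 7mer-m8 site, had a positive log2 fold change, and E2f7 and E2f8, with no site, had the most negative ones. In Ago2-IP RNA 0 of 7 with a site and 0 of 3 without one were called.

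How far each member was represented in Ago2-IP RNA was compared with polyA RNA within each transfection, in the fit of all 16 libraries. In control cells 8 of 10 members were lower in Ago2-IP than in polyA RNA, where 34.6% of all genes were lower and 35.1% higher. This balance over all genes depends on the scaling, with 5157 lower and 5224 higher as given, 6781 and 4145 by library size only, and 6728 and 4176 with TMM within each RNA kind. E2f7 was lowest, at a log2 ratio of -2.64 ± 0.376, followed by E2f1 at -2.05 ± 0.217, E2f5 at -1.87 ± 0.349 and Rbl1 at -1.84 ± 0.275. The ratios of E2f8 (-1.59 ± 0.267), E2f2 (-1.47 ± 0.366), E2f3 (-0.75 ± 0.195) and E2f4 (-0.69 ± 0.0918) were below 0 as well, all with adjusted p-values of 0.00159 or less. With the replicate block the call of E2f2 was lost (adjusted p = 0.102). Rbl2 was higher in Ago2-IP RNA, at 0.43 ± 0.133 (adjusted p = 0.00591), and Rb1 was at 0.50 ± 0.269 (adjusted p = 0.101). The call for Rbl2 rests on the scaling: by library size only, which moved the median of all genes by -0.32, its ratio was 0.11 (adjusted p = 0.433). Relative to the median of all genes it was 0.46 under both scalings. It was also lost without Ago2-IP control replicate 2 (0.29, adjusted p = 0.0532).

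With miR-106b, 4 of 10 members were lower in Ago2-IP than in polyA RNA and 0 higher, where 24.4% of all genes were lower and 21.9% higher, or 4832 lower and 2484 higher genes by library size only and 4924 and 2404 with TMM within each RNA kind. These were E2f1 at -1.34 ± 0.233, Rbl1 at -1.18 ± 0.323, E2f5 at -1.10 ± 0.366 and E2f4 at -0.38 ± 0.0948. Without Ago2-IP miR-106b replicate 4 the call of E2f5 was lost, at -0.76 (adjusted p = 0.0683), and with the replicate block that of Rbl1 (adjusted p = 0.0557). E2f7 was at -1.05 ± 0.438 (adjusted p = 0.0625), and it was called without polyA miR-106b replicate 1 (-1.32, adjusted p = 0.0149) or 4 (-1.25, adjusted p = 0.0234), by library size only, in DESeq2 and with TMM within each RNA kind. Over all fits without 1 library the value of E2f7 ran from -1.32 to -0.42, with adjusted p-values up to 0.256. Leaving out 1 library gave 3 to 5 members lower. E2f3, at a log2 ratio of -0.0029 ± 0.215, E2f8, at 0.27 ± 0.301, and E2f2, at 0.28 ± 0.408, did not pass the test. Since each of these comparisons shares libraries with the change in polyA RNA, their values stand side by side and are not independent. The cardiac sums given above were higher in Ago2-IP than in polyA RNA in both transfections, and their part in these ratios was not tested.

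Because several members are known E2F target genes, the 300 bases around the start of each gene in RefSeq (GRCm38.p6, 250 before and 50 after) were searched on both strands for the core of the E2F site, TTTNNCGC, or GCGNNAAA on the other strand. No stretch can match both forms at once, and no other motif was searched. The table lists such a window for 7 of the 10 members, and 4 of these, E2f2, E2f3, E2f7 and Rbl1, held the motif, against 5.93% of 27025 genes. It was not found in the windows of E2f1, E2f8 and Rbl2, which says nothing about E2F binding elsewhere. Matches are shown in capitals, read along the strand of the gene, for the members that fell in polyA RNA and hold one.
E2f2, chr4:136172278-136172285: gaggcgcggcaTTTTCCGCgggagatccga
E2f2, chr4:136172313-136172320: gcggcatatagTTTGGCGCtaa
E2f3, chr13:29986067-29986074: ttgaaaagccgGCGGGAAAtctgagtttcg
E2f7, chr10:110745241-110745248: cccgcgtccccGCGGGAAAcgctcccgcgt
Rbl1, chr2:157204545-157204552: aagaaggcgatTTTCGCGCgctttgtcgcg
Rbl1, chr2:157204535-157204542: ttttcgcgcgcTTTGTCGCggggggttgtg

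Relative to the start of the gene in RefSeq, the matches began at 5 and 40 in E2f2, at -11 in E2f3, at -198 in E2f7 and at -18 and -8 in Rbl1. All but that of E2f7 thus began within 40 bases of that start. For E2f2 the RefSeq start lies upstream of the GENCODE start given above, and both matches lie before the latter. Among the E2F target genes with a window, 10 of 16 held the motif.

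E2F target genes, the enzymes and loading factors of DNA replication, fell alongside the members in polyA RNA. Of 19 measured, 18 fell and 0 rose, where 21.5% of all genes fell and 19.0% rose, with a median log2 fold change of -1.49, and without miR-106b replicates 2 and 4 the number was 12. Rrm2, a subunit of ribonucleotide reductase, fell by 1.96 ± 0.416 on the log2 scale (adjusted p = 0.006), Cdk1, the mitotic kinase, by 1.91 ± 0.310 and Mcm5, of the replicative helicase, by 1.90 ± 0.375. The values closest to 0 were those of Cdc25a, a phosphatase that activates cyclin-dependent kinases (-0.86 ± 0.177), and Gins1, of the replication fork (-0.70 ± 0.367, adjusted p = 0.143). Mcm7, the host gene of miR-106b, was at 199, 220, 206 and 159 normalized CPM in control and at 50.1, 82.2, 107 and 39.2 in miR-106b libraries. Its groups did not overlap, and it fell by 1.49 ± 0.264 on the log2 scale (adjusted p = 0.00159). In Ago2-IP RNA none of the 19 passed the test, with 1 at an unadjusted p under 0.05, and in the ratio 10 of 19 rose, beside 7.62% of all genes.

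Of the 9 partners of the family and subunits of the MuvB complex, which joins p107 or p130 with E2F4 into a repressor and B-Myb into an activator, 5 fell and 2 rose in polyA RNA, the latter a share near the 19.0% of all genes that rose (21.5% fell). Tfdp1, the main DP partner, was at 118, 126, 131 and 94.96 normalized CPM in control and at 60.6, 50.2, 73.0 and 46.3 with miR-106b and fell by 1.03 ± 0.152 on the log2 scale (adjusted p = 0.000682). Mybl2, which encodes B-Myb, fell by 1.65 ± 0.361, Lin9 by 1.14 ± 0.355, Lin54, the DNA-binding subunit of MuvB, by 0.78 ± 0.198, and Rbbp4, a histone-binding subunit, by 0.46 ± 0.130. The genes that rose are the other DP partner and a repressor that binds no pocket protein. Tfdp2 rose by 0.42 ± 0.141 on the log2 scale (adjusted p = 0.0299). E2f6 was at 30.9, 31.2, 27.5 and 30.2 normalized CPM in control and at 38.0, 55.5, 43.8 and 50.3 with miR-106b, all above control, and rose by 0.64 ± 0.134 (adjusted p = 0.00249). Lin37, at 0.24 ± 0.159, and Lin52, at 0.47 ± 0.338, did not pass the test. In the Ago2:polyA ratio E2f6 fell by 0.87 ± 0.151 and Tfdp2 by 0.67 ± 0.191, while Tfdp1 rose by 1.09 ± 0.203, Lin54 by 1.03 ± 0.318 and Lin9 by 1.91 ± 0.597.

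Upstream of the pocket proteins, 7 of 9 cyclins and kinases of the G1 and S phases fell in polyA RNA and 0 rose, beside 21.5% and 19.0% of all genes. Ccna2, the cyclin of the S phase and of mitosis, fell by 1.99 ± 0.333 on the log2 scale (adjusted p = 0.00122), and the E-type cyclins Ccne1 and Ccne2 by 1.06 ± 0.287 and 1.76 ± 0.548. Ccnd1, the cyclin that first acts on RB, was at 228, 254, 243 and 164 normalized CPM in control and at 120, 133, 147 and 107 with miR-106b and fell by 0.81 ± 0.149 (adjusted p = 0.00127). Its kinases Cdk4 and Cdk6 fell by 0.57 ± 0.146 and 0.91 ± 0.197, and Cdk2, the kinase of cyclins E and A, by 1.04 ± 0.147. The D-type cyclins Ccnd2 and Ccnd3 were at 0.13 ± 0.224 and 0.21 ± 0.166 and did not pass the test. Among 7 inhibitors of these kinases 1 rose and 1 fell, no larger a share than that of all genes (19.0% and 21.5%). Cdkn1c (p57) rose by 1.09 ± 0.293 (adjusted p = 0.0101), from 9.47, 6.60, 5.84 and 9.43 to 12.1, 20.02, 9.64 and 25.9 normalized CPM, and Cdkn1a (p21) fell by 0.60 ± 0.110 (adjusted p = 0.00128). The other 5 inhibitors, of which Cdkn2c had the most negative value at -0.43 ± 0.193 (adjusted p = 0.091), did not pass the test. The median log2 fold changes of partners, cyclins with kinases and inhibitors were -0.46, -0.91 and -0.11, beside -0.05 over all genes. In Ago2-IP RNA 0 of the genes of these lists passed the test, and 0 had an unadjusted p under 0.05.

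**Figure D5:**
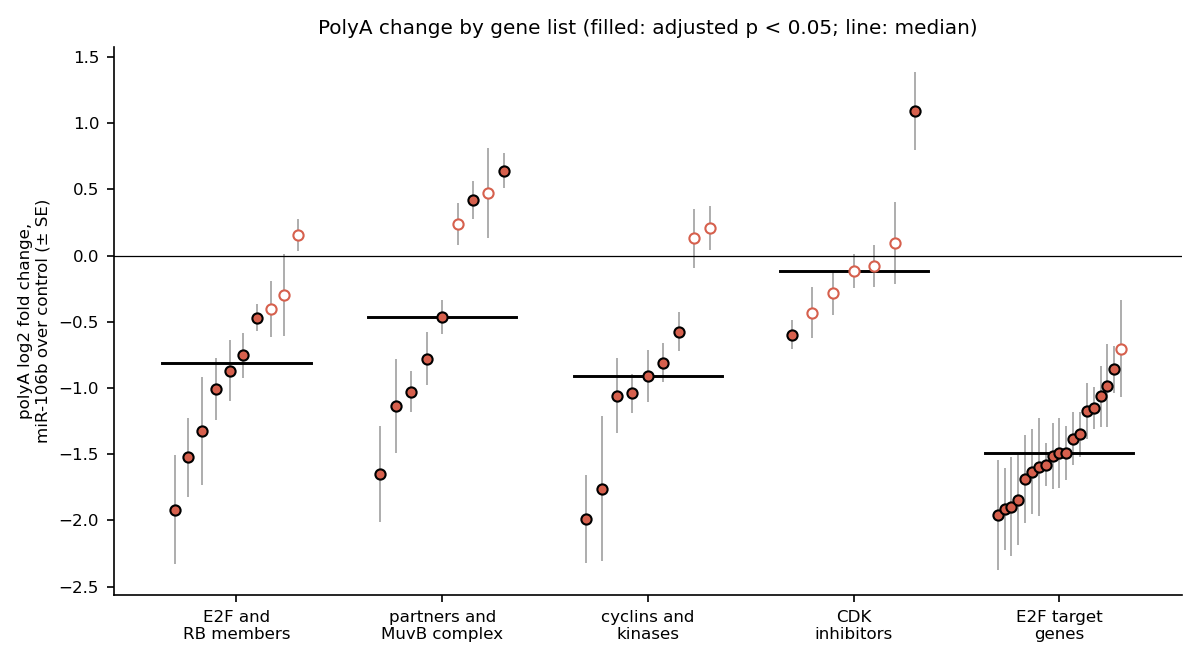
Log2 fold change with miR-106b in polyA RNA (± SE) for every tested gene of the E2F and RB family, its partners, the cyclins and kinases, the inhibitors and the E2F target genes, filled where the adjusted p is under 0.05, with the median of each list as a line. The medians are -0.81, -0.46, -0.91, -0.11 and -1.49 in this order, and E2f6, Tfdp2 and Cdkn1c are the filled points above 0.

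The genes whose polyA levels followed those of E2f1 most closely over the 8 libraries, among 10907 with a mean of at least 5 CPM, were 1500012F01Rik (Pearson's r = 0.994), Zdhhc16 (0.993), Sec63 (0.993), Arhgef18 (0.987) and Fkbp2 (0.986). These values describe 8 libraries of 2 groups that differ in the level of E2f1, and none of the 5 is a member or belongs to the lists above.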

How the data were processed

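The values are whole-number read counts per gene, as deposited by the authors without normalization, for 16 libraries. According to the study's methods, reads of ribosomal RNA were removed and the rest was aligned to the GRCm38 transcriptome with TopHat2 (version 2.0.10 in the submitters' processing notes) and counted with HTSeq, whose strand setting is not given in the sources used here. Genes with at least 1 CPM in at least 3 of 4 replicates of a group were tested, a rule taken from the study's methods, although the number of genes it left here is not the one given there. Counts were scaled by TMM and tested in R 4.3.3 with edgeR 4.0.16 (quasi-likelihood F test, robust, two-sided, prior count of 0.125) with Benjamini-Hochberg adjustment over 14897 genes and a threshold of 0.05. Each RNA kind had its own fit for the effect of miR-106b, and all 16 libraries shared a fit for the ratio and for Ago2-IP against polyA RNA. SE is the maximum likelihood log2 fold change divided by the root of F. Normalized CPM used TMM within each RNA kind, and marker CPM library size only. Alternatives included DESeq2 1.42.0. The tests were also run on simulated counts with the same relative spread for every gene. That setting is simpler than these data, and no conclusion is drawn from it.

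Gene positions and 3′UTRs came from GENCODE M21 (GRCm38). Of 44950 genes in both annotations 99.9% overlapped at the positions of the deposited table. The members and lists were chosen with earlier results of these data known. Named were all members and, from the other lists, any gene of partners, cyclins, kinases and inhibitors, the 3 lowest and 3 highest E2F targets and Mcm7, and the 5 genes most like E2f1. Ratios of members within a library were chosen after the values were seen. Replicates of a group all differed beyond sampling noise. The values of 1 gene that this rule names are not reported here.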

Additional observations from a re-analysis of the deposited data

Results flagged for a closer look

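E2f8 in Ago2-IP miR-106b replicate 4, at 10.2 normalized CPM, stood apart from the other 3 libraries of its group, at 6.44 to 7.004 CPM, by a gap of 0.851 of the group's range. It was the only such library among 40 groups of 4 tested over the 10 members, where chance gives about 1 in 20. Without it the Ago2-IP groups of E2f8 still did not overlap.

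The change with miR-106b differed between Ago2-IP and polyA RNA for E2f2, by 1.75 on the log2 scale, and for E2f8, by 1.86, in the interaction test of edgeR's quasi-likelihood fit (adjusted p = 0.0216 and 0.00118). In polyA RNA 4 of 4 miR-106b libraries lay below all control libraries for both genes, as for 21.6% of all genes.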

How the results depend on the processing

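No alternative turned the direction of a called member. In polyA RNA the number of members that fell was 7, between 4 and 7 when 1 library was left out (4 without control replicate 2), and 3 without miR-106b replicates 2 and 4, with fewer libraries. Of 14897 genes 3198 fell, 1636 without control replicate 2 and 1463 without miR-106b replicates 2 and 4. The ratio rose for 2 members. It rose for 4 with DESeq2 size factors, library size only or at least 10 counts in every library, and for 5 with no filter, DESeq2's Wald test, the likelihood ratio test, TMM within each RNA kind or the replicate block. Over all genes the ratio rose for 1135 of 14897 as given, 1331 with DESeq2 size factors, 1991 by library size only and 1289 of 10149 with at least 10 counts. It rose for 1732 of 31502 genes with no filter, 1408 in DESeq2's Wald test and 1818 in the likelihood ratio test. With TMM within each RNA kind it rose for 1937 genes, and with the replicate block for 1074. Leaving out 1 library gave 1 to 4 members, beside 802 to 1537 genes. In control cells Ago2-IP was lower for 8 members, beside 5157 of 14897 genes. It was lower for 5 with at least 10 counts, which tests fewer members, beside 4011 of 10149 genes. It was higher for 1 member, for 0 with library size only, no filter, the replicate block or TMM within each RNA kind, for 2 with the likelihood ratio test, and for 0 to 2 without 1 library. Over all genes 5224 were higher as given, 4145 by library size only and 5420 in the likelihood ratio test. With miR-106b, 4 members were lower, beside 3642 of 14897 genes, and 2 with at least 10 counts, beside 3092 of 10149 genes. Other settings gave up to 5 members lower. Of the 10 members, 6 kept their place in the order per kb in either polyA group when the longest transcript gave the length, as did 7 in the Ago2-IP libraries of control cells and 8 in those of miR-106b cells. The cause of the other changes in these counts was not tested.

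The replicate numbers did not pair the libraries, with correlations of deviations between -0.38 and 0.22 for the same number. With the replicate block, polyA calls over all genes were 2935 lower and 2576 higher, 7 members fell and 5 rose in the ratio. The block ended the calls of E2f2 (-1.26) and Rbl2 (0.35) in Ago2-IP against polyA RNA in control and of Rbl1 (-1.25) with miR-106b.

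Directions that changed all belonged to values that did not pass the test. For Rb1 the change of the ratio, -0.03, was 0.023 with DESeq2 size factors, 0.14 with library size only, 0.12 without a filter, 0.030 with at least 10 counts, 0.021 in DESeq2, 0.12 with TMM within each RNA kind, 0.20 without miR-106b replicates 2 and 4, and -0.27 to 0.25 without 1 library. In Ago2-IP RNA Rbl2 was at -0.0094 without a filter and -0.018 with all 16 libraries in 1 fit. In Ago2-IP against polyA RNA with miR-106b, E2f3 was at 0.027 with DESeq2 size factors and 0.027 in DESeq2, and Rbl2 at -0.017 with library size only and -0.029 with TMM within each RNA kind. Without 1 library the ranges were -0.58 to 0.029 for Rb1 in polyA RNA, -0.12 to 0.063 for E2f1, -0.073 to 0.030 for E2f4, -0.35 to 0.18 for Rbl1 and -0.093 to 0.14 for Rbl2 in Ago2-IP RNA, and -0.028 to 0.72 for E2f2 and -0.096 to 0.097 for E2f3 in Ago2-IP against polyA RNA with miR-106b.

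Seed sites were found in 7 members under all 3 definitions. Of tested genes with a 3′UTR, 14.8% held a site as given, 15.7% in any annotated 3′UTR and 22.2% with CACTTTA counted too. Calls over all genes in the ratio were 1135 higher and 2937 lower, or 1991 and 2311 by library size only. Depth limits E2f2, E2f5 and Rbl1 most, at 2 to 25 counts per Ago2-IP library.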

Other observations

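Reads of p107 and p130 were also set against each other within each library, a pair chosen because Rbl1 was seen to fall and Rbl2 was not, so that the ratio describes those values again and carries no test. For each 100 reads of Rbl2 there were 40.9, 50.7, 65.5 and 31.3 reads of Rbl1 in polyA control and 18.5, 16.7, 25.0 and 25.2 in polyA miR-106b libraries, a ratio that needs no scaling between libraries. All 4 miR-106b libraries lay below all control libraries, at a mean log2 difference of -1.11. In Ago2-IP RNA the same ratio was 5.46 to 20.2 in control and 5.93 to 10.7 with miR-106b, which overlap. Reads of E2f1 for each 100 reads of E2f4 were 37.2 to 48.2 in polyA control and 19.3 to 48.4 with miR-106b, which overlap, and 15.1 to 19.5 and 15.8 to 18.4 in Ago2-IP RNA.

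Within the polyA miR-106b group the libraries were not alike. Of the 19 E2F target genes 14 were highest in replicate 3, and 8 were lowest in replicate 1 and 9 in replicate 4. Of the 10 members 4 were highest in replicate 3 (E2f2, E2f4, E2f7 and E2f8), each of them lowest in replicate 1 or 4. The others were highest in replicate 1 (E2f1, E2f5 and Rbl2), replicate 2 (E2f3) or replicate 4 (Rb1 and Rbl1). In replicates 1 to 4 the cardiac sum was 42436, 72648, 52802 and 71137 CPM, and the fibroblast sum, carried mostly by Col1a1 and Col3a1, 27063, 16860, 14679 and 19997 CPM. The median of the 6 fibroblast markers, each relative to its mean in Ago2-IP control, was 0.594, 0.775, 0.594 and 0.787, and that of the cardiac markers 0.414, 0.717, 0.516 and 0.696. The part of these transcripts in the spread within the group was not tested.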
